A study of Mus musculus with 21 samples.

Results

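The circadian output genes are clock-controlled genes that carry the daily rhythm of the core clock to the rest of the cell. Here they are 10 genes, Dbp, Tef, Hlf, Nfil3, Ciart, Bhlhe40, Bhlhe41, Noct, Wee1 and Usp2, chosen by symbol from a table of 55450 Ensembl genes. All 10 had a row in the table, and all 10 were among the 17309 genes with enough counts to be tested.

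RNA was sequenced from left ventricle of 21 male mice of strain 129S6/SvEv, with each mouse giving a single sample. R403Q mice carry the heterozygous R403Q mutation of the cardiac myosin heavy chain gene Myh6 (written Myh6+/R404Q in the labels), a model of hypertrophic cardiomyopathy, and WT mice were their littermates. The groups were WT on control diet (WT-CD, n = 5), R403Q on control diet (R403Q-CD, n = 7), WT on the same diet with empagliflozin at 0.15 mg/g (WT-EMPA, n = 5) and R403Q on that diet (R403Q-EMPA, n = 4). Empagliflozin (EMPA) inhibits the sodium-glucose cotransporter SGLT2. Diets began at 9 to 10 weeks of age. By the study's methods and series text the hearts for RNA were taken at 12 weeks of age after 2 weeks of diet, whereas the sample labels name the full course of 16 weeks.

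The labels also give the cage of each mouse. The 12 CD mice came from 4 cages (68657, 68660, 68664 and 68666) and the 9 EMPA mice from 3 others (68691, 68692 and 68695), so no cage held both diets and an effect of diet cannot be told apart from one of cage. Cage 68691 held only WT mice, and the other 6 cages held both genotypes. The mice were housed under controlled light. The time of day at which hearts were taken is not given in the sources used here, and its part in the differences below was not tested.

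In the core clock, the proteins of Clock and Arntl (Bmal1) bind E-boxes in DNA and switch on the Per, Cry and Nr1d genes, whose products in turn repress the activators or, for Nr1d1 and Nr1d2 (Rev-erb), repress Arntl. The same activators drive output genes. Dbp, Tef and Hlf are bZIP activators of the PAR family that bind D-boxes, and Nfil3 (E4bp4) competes with them at D-boxes as a repressor. Ciart (Chrono), Bhlhe40 (Dec1) and Bhlhe41 (Dec2) are repressors that act back on the clock, whereas Noct (a phosphatase related to deadenylases), Wee1 (a kinase that holds cells before mitosis) and Usp2 (a deubiquitinase) carry the rhythm to metabolism, the cell cycle and protein turnover. Heart muscle has a clock of its own.

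The promoters are shown because the members differ in whether the site bound by the activators lies close to their start. In the 250 bases before the RefSeq start sites (GRCm38.p6), 8 of the 10 members could be looked up, and 3 of them held the E-box CACGTG, which reads the same on both strands: Ciart, Bhlhe41 and Tef. Of 32851 mouse promoters of the same length, 6.02% held it. Shares over all promoters are per start site and not per gene: the 8 members had 9 promoters, 2 of them of Tef, both with the E-box. The stretches of Ciart (chr3:95882252-95882478, minus strand, 227 bases) and Bhlhe41 (chr6:145865559-145865670, minus strand, 112 bases) run 5′ to 3′ and end where the GENCODE gene begins. For Tef, 30 bases around the site are given at each of its 2 start sites (chr15:81802534-81802563 and chr15:81811264-81811293, plus strand). Capitals mark the E-box.
Ciart: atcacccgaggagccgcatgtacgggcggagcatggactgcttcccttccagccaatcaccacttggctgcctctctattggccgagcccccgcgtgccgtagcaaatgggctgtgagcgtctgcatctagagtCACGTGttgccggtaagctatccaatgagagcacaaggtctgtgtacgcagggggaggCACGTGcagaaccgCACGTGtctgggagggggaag
Bhlhe41: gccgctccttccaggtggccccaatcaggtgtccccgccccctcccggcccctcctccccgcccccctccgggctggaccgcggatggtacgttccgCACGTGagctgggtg
Tef, first start: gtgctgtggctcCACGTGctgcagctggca
Tef, second start: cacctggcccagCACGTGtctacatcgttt
Counted from the RefSeq start, Ciart held 3 copies with first bases at −116, −58 and −44, Bhlhe41 held 1 at −153, and Tef held 1 at −127 or −138. The RefSeq start lies 23 bases inside the GENCODE gene for Ciart and 138 for Bhlhe41, whose printed stretches stop at the GENCODE start. The Tef and Nfil3 stretches lie within the GENCODE genes. The half-site AGGTCA, read as TGACCT on the other strand and the core of the site of Rev-erb and ROR receptors, was found in 1 member, Nfil3, and in 14.02% of all promoters. It is shown in capitals in 30 bases of that promoter (chr13:52981040-52981069, minus strand), beginning at −12 from the RefSeq start.
Nfil3: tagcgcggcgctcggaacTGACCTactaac
A D-box (TTATGTAA, TTACATAA or TTACGTAA, which covers both strands) was in 0 of the 8 members and in 0.931% of all promoters. These are matches of letters in a short window. Dbp, Hlf, Noct and Usp2 held none of the 3 motifs in it. For Usp2 the window (chr9:44084670-44084919) lies inside the GENCODE gene, which begins at 44067021, so the bases before that start were not searched. For Dbp the window runs across the GENCODE start at 45705088.

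The libraries held between 23491535 and 43539684 counts (median 33329649), and 3 counts corresponded to 0.0689 to 0.128 CPM. CPM, the unit of level below, is the count of a gene scaled to a common library size, here after TMM normalization. The R403Q-CD mouse 68660NN stood apart: its median Spearman correlation with the other mice was 0.968, against 0.986 to 0.992 in the other 20, and its summed ventricular cardiomyocyte markers (7 of 7 detected in the series) were the lowest, at 58556 CPM where the highest mouse had 101554. Results below are given with it, and calls of members also without it where it changes them. The R403Q allele is a changed codon, so gene counts do not check it. In bulk tissue, fewer cells of a type and less RNA per cell cannot be told apart. Summed atrial cardiomyocyte markers (3 of 3 detected) ran from 5.52 to 260 CPM in WT-CD and from 3.21 to 608 CPM in R403Q-CD mice. In WT-EMPA mice they ran from 2.12 to 78.1 CPM, and in R403Q-EMPA mice from 2.70 to 34.8 CPM. Their part in the differences below was not tested.

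Per kilobase of exon, the mean level over the 21 mice was highest for Tef (33.5 CPM per kb), Usp2 (31.3) and Dbp (24.2 CPM per kb), intermediate for Wee1 (15.7), Nfil3 (11.1) and Bhlhe40 (10.2 CPM per kb), and lowest for Hlf (5.35), Noct (4.92), Bhlhe41 (4.84) and Ciart (3.90 CPM per kb). The ranges of neighbours in this order overlapped: single mice ran from 23.1 to 40.7 CPM per kb for Tef and from 20.3 to 40.1 CPM per kb for Usp2. Dbp crossed most of the order, from 7.69 to 43.5 CPM per kb. The genes also differed in how much they varied. The highest mouse exceeded the lowest 8.31-fold for Ciart, 5.66-fold for Dbp and 3.41-fold for Wee1, but 1.76-fold for Tef and 1.98-fold for Usp2. Mouse 68660NN held the highest Wee1 value and the lowest Tef and Usp2 values. Ciart, the rarest, still had between 59 and 608 counts per mouse.

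With EMPA diet against CD over both genotypes, 5 of the 10 output genes were lower (Ciart, Dbp, Wee1, Hlf and Noct) and 0 were higher by edgeR's quasi-likelihood test with Benjamini-Hochberg adjustment over all 17309 genes at 0.05. Of all genes tested, 2.91% passed and 0.936% passed with a lower level. At an unadjusted p under 0.05 the count was 9 of 10, against 20.1% of all genes. The median log2 fold change was −0.35 for the members and −0.01 for all genes. Nfil3 was the only member with a positive value. The count rests on a few cages, and so does that over all genes. It was 0 without EMPA cage 68695 (0.00562% of all genes called) or CD cage 68666 (0.205%), 1 without EMPA cage 68691 (0.472%) or CD cage 68660 (1.14%), and 2 (Ciart and Dbp) with cage as a random effect, where 0.653% of all genes were called. It was 6 without mouse 68660NN, where 4.22% of all genes were called. The fit with cage as a random effect gave all genes the same correlation of cage mates (0.103), which was not estimated for each member. Dbp was near the threshold in that fit (limma adjusted p = 0.0492). Summed red blood cell markers (3 of 3 detected) ran from 624.6 to 1492 CPM in CD mice and from 1073 to 2348 CPM in EMPA mice. Summed smooth muscle markers (3 of 3 detected) had medians of 374 CPM in WT-CD and 415 CPM in R403Q-CD mice. Their medians were 260 CPM in WT-EMPA and 247 CPM in R403Q-EMPA mice, and the ranges of the diets overlapped. The part of either marker set in these differences was not tested.

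**Figure D1:**
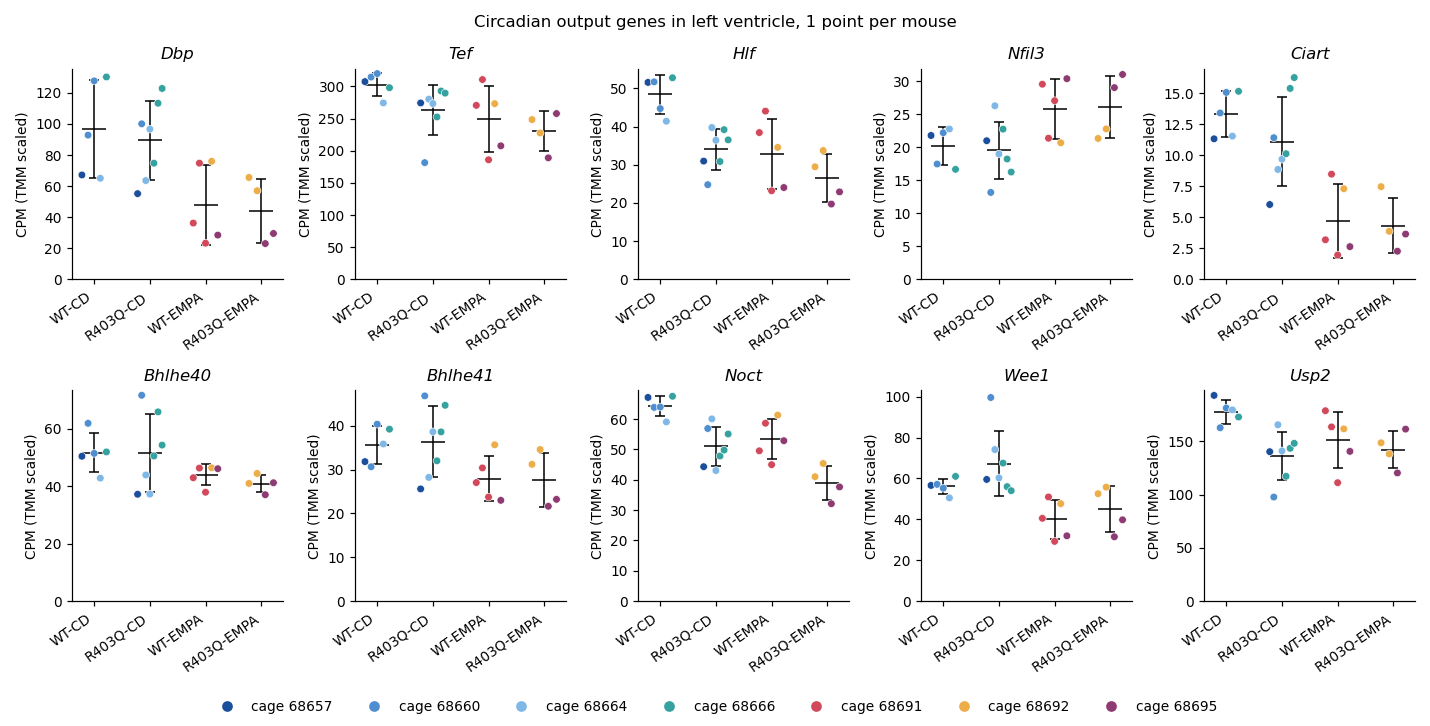
TMM-scaled CPM (vertical axes, from 0) of the 10 output genes in the 4 groups, with 1 point per mouse coloured by cage and a bar for the mean ± SD. Ciart and Dbp were spread widest, with EMPA mice of cage 68695 at 2.27 to 3.65 CPM for Ciart and 23 to 29.5 CPM for Dbp.

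Dbp (ENSMUSG00000059824, chr7:45705088-45710203, plus strand of GRCm38) encodes the PAR bZIP activator whose transcript is among those with the largest daily swing in many tissues. Its level in the WT-CD mice was 67.2, 92.8, 128, 65.1 and 130 CPM, and in the R403Q-CD mice it ran from 55.2 to 123 CPM (median 96.7). In the WT-EMPA mice it was 36.2, 74.8, 23.3, 76.0 and 28.5 CPM, and in the R403Q-EMPA mice 65.6, 57.0, 23.0 and 29.5 CPM. Of the 9 EMPA mice, 5 lay below all 12 CD mice and the other 4 lay within the CD range. The log2 fold change for diet was −1.02 (SE 0.243, edgeR adjusted p = 0.0289), with −1.03 in R403Q and −1.02 in WT mice. Dbp overlaps Sphk2 on the opposite strand.

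Hlf (ENSMUSG00000003949, chr11:90336536-90390895, minus strand) encodes another PAR bZIP activator. Its level was 51.6, 51.7, 44.7, 41.4 and 52.8 CPM in WT-CD, 38.4, 44.1, 23.2, 34.6 and 24.0 CPM in WT-EMPA, and 29.5, 33.7, 19.7 and 22.9 CPM in R403Q-EMPA mice. R403Q-CD mice ran from 24.8 to 39.8 CPM (median 36.4). WT-CD mice were thus the highest group, and 4 EMPA mice lay below all CD mice (5 without mouse 68660NN). The diet log2 fold change was −0.46 (SE 0.120, edgeR adjusted p = 0.0422), the value nearest the threshold among the 5 called. Tef (ENSMUSG00000022389, chr15:81802421-81826863, plus strand), the third PAR bZIP gene, was 303 ± 17.9 CPM in WT-CD, 263 ± 38.5 in R403Q-CD, 250 ± 51.3 in WT-EMPA and 231 ± 30.5 CPM in R403Q-EMPA mice (SD, n = 5, 7, 5 and 4). Its diet log2 fold change of −0.24 (SE 0.0925) did not pass (edgeR adjusted p = 0.155), and 0 EMPA mice lay below all CD mice. Mouse 68660NN (181 CPM) decides both: without it the value was −0.27 (SE 0.0773, edgeR adjusted p = 0.0465), and 5 EMPA mice lay below all remaining CD mice.

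Nfil3 (ENSMUSG00000056749, chr13:52967209-52981073, minus strand), the D-box repressor, had the opposite sign. It was 21.8, 17.5, 22.2, 22.8 and 16.7 CPM in WT-CD mice and ran from 13.2 to 26.3 CPM (median 19.0) in R403Q-CD mice. In WT-EMPA it was 29.6, 21.4, 27.1, 20.7 and 30.4 CPM, and in R403Q-EMPA 21.4, 22.8, 29.1 and 31.1 CPM. Of the 9 EMPA mice, 5 were above all CD mice, and they were the same mice that were lowest for Dbp: the 3 of cage 68695 and mice LN and RN of cage 68691. The diet log2 fold change was 0.39 (SE 0.112), which did not pass (edgeR adjusted p = 0.0601).

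Among the repressors that act on the clock, Ciart differed most between diets of the 10 members. Ciart (ENSMUSG00000038550, chr3:95878503-95882251, minus strand) was 11.3, 13.4, 15.1, 11.5 and 15.2 CPM in WT-CD mice and 6.03 to 16.3 CPM (median 10.1) in R403Q-CD mice. It was 3.19, 8.48, 1.96, 7.30 and 2.64 CPM in WT-EMPA and 7.47, 3.87, 2.27 and 3.65 CPM in R403Q-EMPA mice. The WT groups did not overlap for Ciart alone of the 10 members, where 3.45% of all tested genes did not overlap, and the R403Q groups overlapped for all 10, where 1.62% of genes did not. Over both genotypes, 6 EMPA mice lay below all CD mice and 0 of 10 members separated the diets fully (0.0693% of all genes did). The log2 fold change was −1.43 (SE 0.251, edgeR adjusted p = 0.00698), and it passed in 32 of the 34 alternatives that were run.

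Bhlhe41 (ENSMUSG00000030256, chr6:145858243-145865558, minus strand) was 35.6 ± 4.32 CPM in WT-CD and 36.4 ± 8.06 in R403Q-CD against 28.0 ± 5.21 in WT-EMPA and 27.6 ± 6.23 CPM in R403Q-EMPA mice (SD). Its log2 fold change for diet was −0.37 (SE 0.116, edgeR adjusted p = 0.0807). Its paralog Bhlhe40 (ENSMUSG00000030103, chr6:108660629-108666925, plus strand) was 51.7 ± 6.80 and 51.6 ± 13.5 CPM in the CD groups and 44 ± 3.67 and 40.9 ± 3.03 CPM in the EMPA groups (WT first), a log2 fold change of −0.28 (SE 0.104, edgeR adjusted p = 0.129). Neither passed. The highest Bhlhe40 and Bhlhe41 values were both in mouse 68660NN, at 71.7 and 46.8 CPM.

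Of the effectors, Wee1 (ENSMUSG00000031016, chr7:110122046-110143286, plus strand) was 56.6, 57.1, 55.2, 50.5 and 61.0 CPM in WT-CD mice and 54.0 to 99.6 CPM (median 60.2) in R403Q-CD mice, the highest being 68660NN. It was 40.5, 50.9, 29.2, 47.6 and 31.9 CPM in WT-EMPA and 52.5, 55.7, 31.5 and 39.8 CPM in R403Q-EMPA mice. Of the 9 EMPA mice, 6 lay below all 12 CD mice, and the diet log2 fold change was −0.54 (SE 0.124, edgeR adjusted p = 0.0258). Noct (ENSMUSG00000023087, chr3:51224447-51251644, plus strand) was 67.1, 63.8, 63.9, 59.0 and 67.5 CPM in WT-CD and 49.5, 58.6, 45.0, 61.3 and 52.9 CPM in WT-EMPA mice. In R403Q-CD it ran from 43.0 to 60.05 CPM (median 49.8), and in R403Q-EMPA it was 41.0, 45.4, 32.1 and 37.6 CPM. R403Q-EMPA mice held the 3 lowest values of the series, and the diet log2 fold change was −0.33 (SE 0.0719, edgeR adjusted p = 0.0211). Usp2 (ENSMUSG00000032010, chr9:44067021-44095627, plus strand) gave the smallest diet value, −0.09 (SE 0.0881, edgeR adjusted p = 0.631).

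Within each genotype alone, the diet values were similar in size but no member passed. In R403Q mice, 0 of 10 were called by edgeR (smallest adjusted p 0.145, 0.0116% of all genes called), 8 had an unadjusted p under 0.05 (13.4% of all genes did), and DESeq2 called 2 (Noct and Ciart, with 0.936% of the genes it adjusted). In WT mice, 0 of 10 were called by edgeR (smallest adjusted p 0.126, 0.0289% of all genes called), 8 had an unadjusted p under 0.05 (11% of all genes did), and DESeq2 called 1 (Ciart, with 0.513% of the genes it adjusted). Ciart differed by −1.38 in R403Q and −1.49 in WT mice on the log2 scale, Wee1 by −0.59 and −0.49, Noct by −0.39 and −0.27, and Hlf by −0.36 and −0.56. Usp2 alone had opposite signs, 0.06 and −0.23, and its value in R403Q mice turned to −0.00895 without R403Q-CD mouse 68660NN and to −0.00472 without R403Q-EMPA mouse 68695NN. The difference between genotypes in the diet effect was called for 0 of 10 members by edgeR and by DESeq2 (0% of all genes by either), and 0 had an unadjusted p under 0.05, as 3.28% of all genes did.

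**Figure D2:**
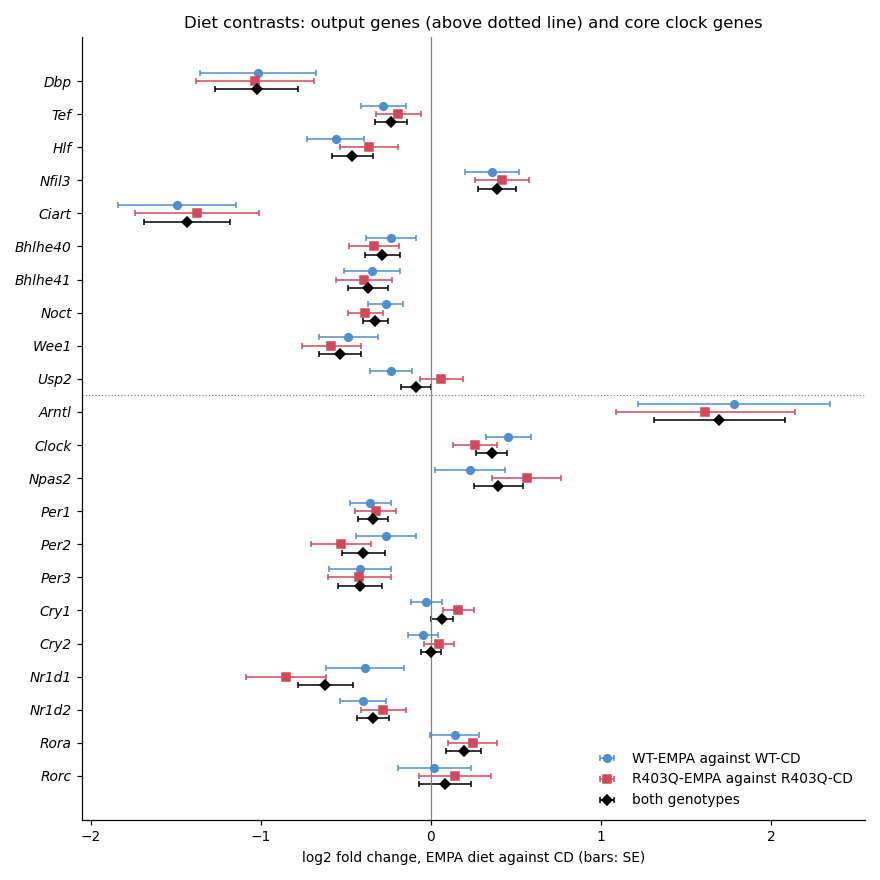
Log2 fold change of EMPA diet against CD (horizontal axis, bars are SE) for the 10 output genes above the dotted line and 12 core clock genes below it, in WT mice, in R403Q mice and over both. Ciart (−1.43) and Dbp (−1.02) lay farthest to the left and Arntl (1.70) farthest to the right.

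The core clock itself was measured in the same mice. Of 19 core clock genes (4 activators, 5 repressors, 5 nuclear receptors, 5 kinases and ligases), 4 passed for diet by edgeR and 8 had an unadjusted p under 0.05, against 2.91% and 20.1% of all genes. Of the 4, Arntl (log2 fold change 1.70, adjusted p = 0.0244) and Clock (0.36, adjusted p = 0.0411) were higher with EMPA, and Per1 (−0.34, adjusted p = 0.0354) and Nr1d1 (−0.62, adjusted p = 0.0436) were lower. Arntl was 4.17, 2.15, 1.48, 2.63 and 1.27 CPM in WT-CD and 11.9, 2.49, 13.5, 1.98 and 10.0 CPM in WT-EMPA mice. It ran from 1.27 to 6.81 CPM (median 2.46) in R403Q-CD and was 3.35, 4.32, 17.1 and 12.8 CPM in R403Q-EMPA mice. The same 5 EMPA mice that were lowest for Dbp and highest for Nfil3 were the 5 highest for Arntl, and the other 4 lay in the CD range. Per2 (−0.40, adjusted p = 0.0810), Per3 (−0.42, adjusted p = 0.0773) and Nr1d2 (−0.34, adjusted p = 0.0542) did not pass by edgeR, and neither did the other core clock genes. The count of 4 was 0 without any one of cages 68660, 68666, 68691 and 68695 (1.14%, 0.205%, 0.472% and 0.00562% of all genes called) and with cage as a random effect (0.653%).

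Genes of other lists that cycle in heart or answer to glucocorticoids were also read for diet, against the same 2.91% and 20.1% of all genes. Of 10 other rhythmic genes, 1 was called, Pdk4, a kinase that inhibits pyruvate dehydrogenase, which rose by 1.15 on the log2 scale (edgeR adjusted p = 0.0253), and 4 had an unadjusted p under 0.05. Of 7 glucocorticoid-responsive genes, Tsc22d3 (−0.43, adjusted p = 0.0120) and Mt1 (−0.33, adjusted p = 0.0388) were lower by edgeR, and 5 had an unadjusted p under 0.05. Of 7 immediate-early genes, 0 were called by edgeR and 1 had an unadjusted p under 0.05. Over all genes, the share called for diet fell to 0.653% with cage as a random effect and to 0.00562% without cage 68695. The calls of Pdk4, Tsc22d3 and Mt1 in those fits are not given here.

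Cages within a diet also differed. Mean Dbp by cage was 61.2, 107, 75.1 and 110 CPM in CD cages 68657, 68660, 68664 and 68666, and 44.8, 66.2 and 27.0 CPM in EMPA cages 68691, 68692 and 68695. Mean Ciart in the same order was 8.68, 13.3, 10.0 and 14.2 CPM, then 4.54, 6.22 and 2.85 CPM, and mean Nfil3 was 21.4, 17.6, 22.7 and 18.5 CPM, then 26.0, 21.6 and 30.2 CPM. Cage 68692 was thus near the CD cages for Dbp and Nfil3, and cage 68695 was farthest from them. Cage 68691 was split, with Dbp at 74.8 CPM in mouse NN and 36.2 and 23.3 CPM in LN and RN.

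**Figure D3:**
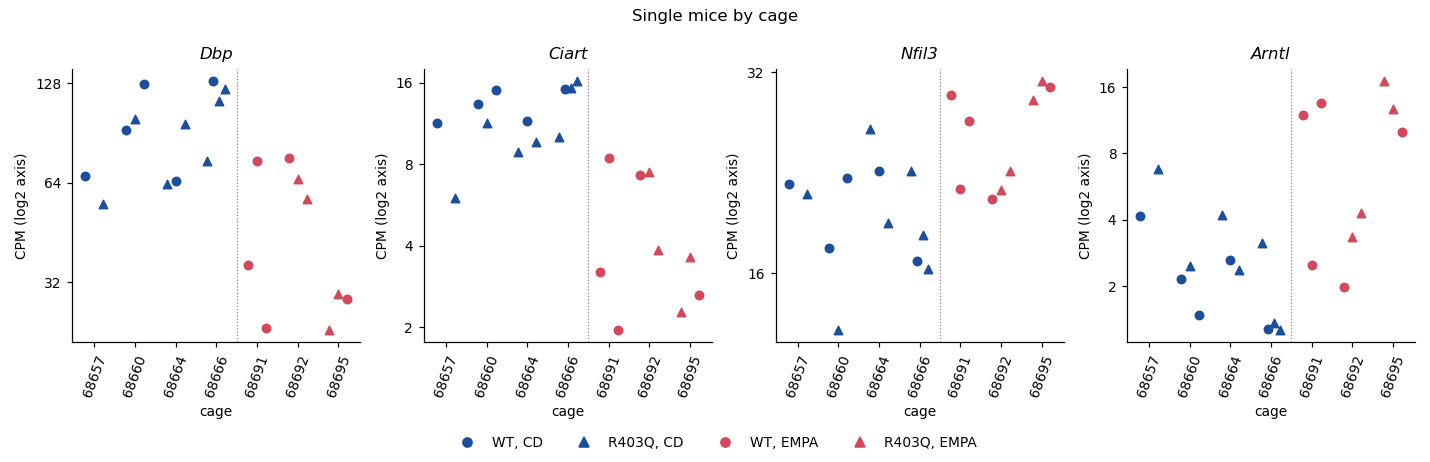
CPM on log2 axes of Dbp, Ciart, Nfil3 and Arntl in single mice by cage, with CD cages left and EMPA cages right of the dotted line, circles for WT and triangles for R403Q. Mice of cage 68695 lay near one end of each panel, and cage 68691 held mice near both ends, with Arntl at 2.49 and 13.5 CPM.

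Differences among cages of 1 diet did not pass the adjusted threshold by edgeR with its filter on low counts. Among CD mice, 0 of 10 members and 0% of 16538 genes were called by edgeR, with 3 members (Dbp, Ciart and Bhlhe40) and 10.3% of genes at an unadjusted p under 0.05, and DESeq2 called 1 (Dbp, with 1.15% of the genes it adjusted). Among EMPA mice, 0 of 10 and 0% of 16635 genes were called by edgeR, with 6 members (Dbp, Hlf, Nfil3, Bhlhe41, Noct and Wee1) and 8.25% of genes at an unadjusted p under 0.05, and DESeq2 called 1 (Bhlhe41, with 1.01% of the genes it adjusted). With no filter on low counts, edgeR called 3 members among CD mice (2.67% of genes) and 6 among EMPA mice (1.75% of genes). When each cage was taken as 1 value, the 3 EMPA cage means lay below all 4 CD cage means for Tef, Hlf, Ciart, Noct and Wee1 (5 of 10, against 5.24% of all genes), with an exact two-sided permutation p of 0.0571 over 35 regroupings, which is the smallest that 3 cages against 4 allow and cannot reach 0.05. For Dbp, Nfil3 and Bhlhe41 the exact permutation p was 0.114, for Bhlhe40 0.4 and for Usp2 0.457.

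The members followed Dbp across mice to very different degrees. Over the 21 mice, log2 CPM of Dbp had a Pearson correlation of 0.95 with Ciart, 0.90 with Bhlhe41, 0.77 with Wee1, 0.70 with Hlf, 0.63 with Bhlhe40, 0.62 with Tef and with Noct, 0.24 with Usp2 and −0.84 with Nfil3. Among all tested genes the highest values were those of Coq10b (0.95), Ciart, Tcap (0.92), Gm9176 (0.91), Nr1d2 (0.91) and Bhlhe41, and the lowest those of Arntl (−0.97), Clock (−0.94), Slc41a3 (−0.93) and Adam19 (−0.90). Ciart ranked second and Bhlhe41 sixth of all tested genes. With the group means subtracted, the values were 0.92 for Ciart, 0.85 for Bhlhe41, −0.96 for Arntl and −0.93 for Clock. These values are descriptions: mice share cages, cages lie within diets, and reads of Dbp and of Sphk2 on the other strand could be mixed, with Sphk2 at −0.84 after the same subtraction.

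**Figure D4:**
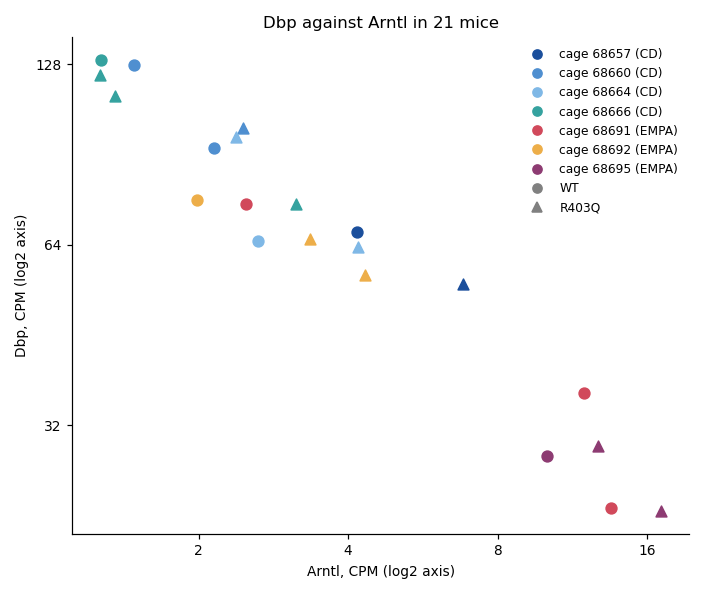
Dbp against Arntl in the 21 mice (CPM, both axes log2), coloured by cage, with circles for WT and triangles for R403Q. The points fall along 1 descending line (Pearson −0.97), and 4 EMPA mice lie among the CD mice while 5 lie beyond them.

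Genotype was compared within each diet. With R403Q-CD against WT-CD, 0 of 10 members were called by edgeR (1.44% of all genes were) and 3 had an unadjusted p under 0.05 (20.9% of all genes did), all lower in R403Q: Hlf (log2 fold change −0.51, SE 0.155, adjusted p = 0.0810), Noct (−0.33, SE 0.0933, adjusted p = 0.0627) and Usp2 (−0.39, SE 0.115, adjusted p = 0.0761). DESeq2 called these 3 and 6.11% of the genes it adjusted, and edgeR called these 3 and 6.02% of all genes without R403Q-CD mouse 68664BN. With cage as a random effect Noct was called, as were 2.74% of all genes. Summed macrophage markers (4 of 4 detected) were 175 to 306 CPM in R403Q-CD and 127 to 178 CPM in WT-CD mice, and summed fibroblast markers (4 of 4 detected) 1323 to 3301 CPM and 988 to 1596 CPM. Their part in these differences was not tested. Hlf was the member whose CD groups did not overlap, with the 7 R403Q values under the lowest of the 5 WT values, and 2.12% of all genes did not overlap here. For Usp2, WT-CD mice were 193, 163, 181, 180 and 173 CPM and R403Q-CD mice ran from 97.7 to 166 CPM (median 141), so that 6 of 7 were under the lowest WT value. Of the 10 other rhythmic genes, 1 was called, against the same 1.44% of all genes. It was Klf15, a Krüppel-like factor with a daily rhythm in heart, which was lower in R403Q-CD mice (−0.40, edgeR adjusted p = 0.0372). Of 19 core clock, 7 glucocorticoid-responsive and 7 immediate-early genes, 0 were called by edgeR.

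With R403Q-EMPA against WT-EMPA, 0 of 10 members were called by edgeR (0.0578% of all genes were), 1 had an unadjusted p under 0.05 (14.7% of all genes did), and DESeq2 called 1 (1.96% of the genes it adjusted). It was Noct in both cases (log2 fold change −0.45, SE 0.109, edgeR adjusted p = 0.0900). Noct was called by edgeR without R403Q-CD mouse 68660NN (adjusted p = 0.0381) or without WT-EMPA mouse 68691RN (adjusted p = 0.0453), where 1.17% and 0.369% of all genes were called. Of the 4 R403Q-EMPA mice, 3 were below all WT-EMPA mice for Noct, and 0 members separated these groups fully, as 6.77% of genes did. The summed markers did separate them: macrophage markers were 195 to 258 CPM in R403Q-EMPA and 101 to 172 CPM in WT-EMPA mice, and fibroblast markers 1519 to 1714 CPM and 944 to 1471 CPM. Their part in the Noct value was not tested. Of the 5 WT-EMPA mice, 3 came from cage 68691, which held no R403Q mouse, so this contrast lies partly between cages.

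Unlike diet, genotype can be read within cages. In the 6 cages that held both genotypes, the R403Q mean was below the WT mean in 6 of 6 for Hlf and for Noct, in 5 of 6 for Dbp, Ciart, Bhlhe41 and Usp2, in 4 of 6 for Tef, Nfil3 and Bhlhe40, and in 1 of 6 for Wee1. Some of these means are of a single mouse. The same count was not made over all genes, so how common such a pattern is remains unknown. For Noct the means were 44.3 against 67.1 CPM in cage 68657, 56.9 against 63.9 in 68660, 51.5 against 59.0 in 68664, 50.9 against 67.5 in 68666, 43.2 against 61.3 in 68692 and 34.9 against 52.9 CPM in 68695. With cage as a factor, edgeR called 0 members in either diet, and 0.115% of all genes in CD and 0.0361% in EMPA mice. In that fit the log2 fold change of Noct was −0.33 in CD and −0.56 in EMPA mice (edgeR adjusted p = 0.104 and 0.102), and that of Hlf was −0.59 in CD and −0.16 in EMPA mice (adjusted p = 0.0688 and 0.764). In the same design Usp2 gave −0.45 in CD (adjusted p = 0.0766) and −0.09 in EMPA mice (adjusted p = 0.853).

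**Figure D5:**
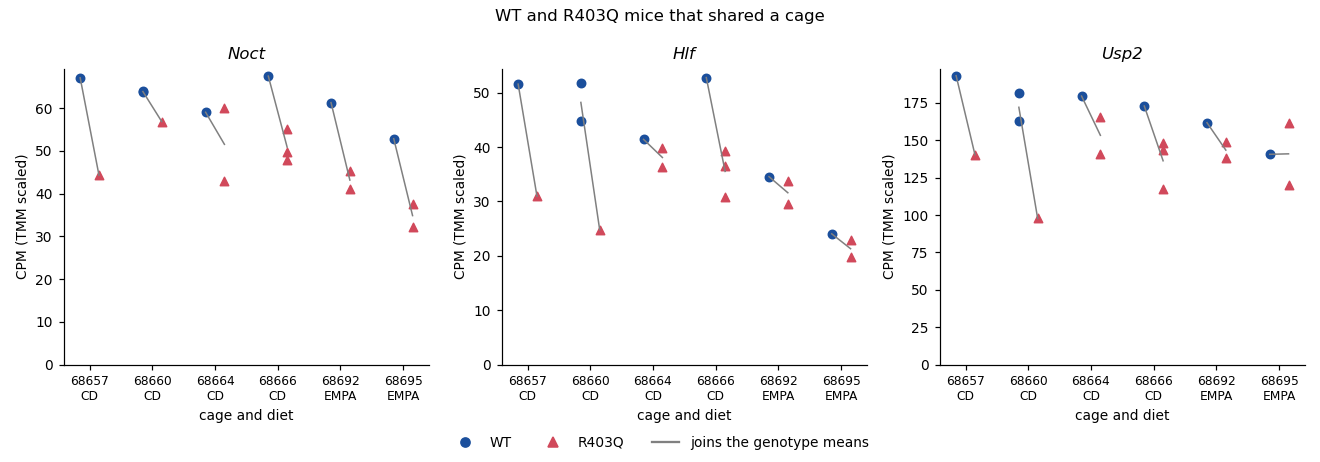
TMM-scaled CPM (vertical axes, from 0) of Noct, Hlf and Usp2 in the 6 cages that held both genotypes, with 1 point per mouse and a line from the WT to the R403Q mean. The line falls in all 6 cages for Noct and Hlf and in 5 of 6 for Usp2.

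Of the 10 members, 8 overlap another annotated gene, all but Hlf and Nfil3. The partner lies on the opposite strand for 7 of them and on the same strand (Gm38357) for Noct. The methods name the same strand among the conditions for counting a read pair, without saying whether the strand of the gene was used, so reads of these genes and of their partners may not be told apart.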

How the data were processed

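RNA was extracted from frozen left ventricle. The authors selected polyadenylated RNA, aligned read pairs to mm10 with STAR 2.6.0c and counted them per Ensembl gene with featureCounts of Subread 1.6.2, leaving out mitochondrial genes. The deposited counts are these, without normalization. The deposited log2 values are DESeq2's variance-stabilized values, made by the authors with version 1.32.0, and were used in a single alternative. Groups, diets and cages came from the sample labels. Symbols and positions came from GENCODE vM21 (GRCm38), which named 55190 of the 55450 genes. Promoter sequences came from RefSeq.

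The tests used edgeR 4.0.16 (R 4.3.3). Genes with too few counts were removed by filterByExpr at a minimum count of 10, and the rest scaled by TMM and fitted over the 4 groups with the quasi-likelihood test, with p-values adjusted by Benjamini-Hochberg over all 17309 tested genes at 0.05. Diet over both genotypes is the mean of the diet effects in WT and R403Q mice. Cages were compared within a diet in fits of CD or EMPA mice alone, and by an exact permutation of cage means (scipy 1.17.1). Correlations used edgeR's log2 CPM, with a prior count of 2 that is scaled to library size and added to the counts. Totals ran from 23491535 to 43539684 counts per mouse.

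The alternatives were RLE scaling, library size alone, no filter, limma 3.58.1 on the deposited log2 values, cage as a factor or as a random effect (voom, correlation of cage mates 0.103), 3 groups (WT-EMPA left out), 2 groups alone, DESeq2 1.42.0, leaving out each mouse and, added after the data were seen, each cage. The members, the other gene lists and the tests were chosen with earlier results of these data known. Named genes are the members, genes of the lists (those that passed, and Per2, Per3 and Nr1d2, which did not), and the genes most like Dbp in pattern. Each mouse gave 1 sample. WT and R403Q mice shared 6 of the 7 cages, which allowed cage to enter the genotype comparisons.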

Additional observations from a re-analysis of the deposited data

Results flagged for a closer look

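Of 40 sets of values (10 genes in 4 groups), 1 had a mouse farther from the rest than Dixon's critical value allows, where chance flags about 1 in 20. Tef was 181 CPM in the R403Q-CD mouse 68660NN and 252 to 293 CPM in the other 6 mice of that group. The gap was 0.690 of the group's range, against a critical value of 0.568. This is the mouse whose library stood apart. Without it, Tef was lower with EMPA over both genotypes by edgeR (adjusted p = 0.0465).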

How the results depend on the processing

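For the members called for diet over both genotypes (5), the count was 2 with cage as a random effect, 7 with DESeq2 and 1 to 7 when single mice were left out: 1 without R403Q-EMPA mouse 68695LN or 68695NN (122 and 150 of all genes called, against 504 with every mouse), 2 without WT-EMPA mouse 68695RN or WT-CD mouse 68666LN (190 and 182), and 3 without WT-EMPA mouse 68691LN or WT-CD mouse 68660RN (258 and 308). It was 0 without cage 68695 or 68666, 1 without cage 68691 or 68660, 5 without 68657, 6 without 68664 and 7 without 68692. The count over all genes was 983 with DESeq2, 113 with cage as a random effect, and 1, 35, 84 and 198 without cages 68695, 68666, 68691 and 68660. For the core clock genes (4) the count was 0 with cage as a random effect, 7 with DESeq2, 0 to 7 without single mice, and 0 without cage 68691, 68695, 68660 or 68666. DESeq2 called 2 members in R403Q-EMPA against R403Q-CD, 1 in WT-EMPA against WT-CD, 3 in R403Q-CD against WT-CD, 1 in R403Q-EMPA against WT-EMPA, and 1 for cage in each diet, where edgeR called 0. R403Q-CD against WT-CD gave 1 with cage as a random effect and 0 to 3 without single mice, and R403Q-EMPA against WT-EMPA gave 0 to 1 without single mice. With no filter, cage was called for 3 members among CD and 6 among EMPA mice. The cause of these shifts was not tested, beyond the smaller number of mice where some were left out.

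Of 1472 values of single members under alternatives, 1396 kept direction and side of the threshold, 47 fell below it, 26 rose above it and 3 changed sign. The latter were all Usp2 in R403Q-EMPA against R403Q-CD (0.06 on the log2 scale), which ran from −0.00895 (without mouse 68660NN) to 0.13 without single mice, was −0.00472 without mouse 68695NN, and was −0.00916 without cage 68660. For diet over both genotypes, each member kept its sign in all 34 alternatives, and the call was made in 32 for Ciart, 27 for Noct, 25 for Wee1, 24 for Dbp, 15 for Hlf, 6 for Nfil3, 5 for Bhlhe41, 1 each for Tef and Bhlhe40 and 0 for Usp2. The labels give no replicate numbers that pair mice, so cage served as the block for genotype: with cage as a factor, 0 members were called in either diet, where 19 genes in all were called in CD and 6 in EMPA mice. With 3 cages against 4, a permutation over cages cannot reach 0.05. The lowest count of any member in any mouse was 59, for Ciart.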
